A study of Mus musculus with 2 samples.

Results

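The genes described here build cholesterol and fatty acids or govern that synthesis: 33 genes, chosen by a named list of pathway members and matched by Ensembl identifier to symbols, of 43346 mouse genes listed. They were read in hindbrain RNA of 2 newborn mouse pups of strain B6NCrl at postnatal day 0, labelled pup 1 (replicate 1) and pup 3 (replicate 2), with no treatment or altered allele named and sex not collected. Each library came from the hindbrain of a single pup and began with 13 pg of RNA longer than 200 nt, the amount named 1 cell-equivalent, so it samples the mixed cells of the tissue at a very small input. Both libraries belong to 1 group, the labels give the pups the same donor record, and with 1 library per animal no difference between them has a replicate check. All results are therefore descriptions, and no test was possible. In such bulk RNA, fewer cells of a type and less RNA per cell cannot be told apart.

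Cholesterol is built from acetyl-CoA through mevalonate, the isoprenoid diphosphates and squalene to lanosterol, which a chain of demethylases, reductases and isomerases turns into cholesterol. The brain makes nearly all of its own cholesterol, since lipoprotein cholesterol of the blood hardly crosses the blood-brain barrier, and growing axons and later myelin draw on it. Many of these genes answer to SREBP transcription factors, which Scap escorts out of the endoplasmic reticulum when sterols are low and Insig proteins hold back when sterols are high. Fatty acid synthesis shares the acetyl-CoA supply and SREBP control, and its products are then elongated and desaturated.

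The total expected count, an estimate in which reads shared by transcripts are split, came to 35462381 for pup 1 and 29866728 for pup 3, of which 33462210 and 28285749 fell on nuclear mouse genes. Levels are given in TPM, a length-scaled share of transcripts, rescaled to a total of 1000000 over nuclear genes, and detection means 5 or more expected counts. A floor of 3 counts is worth 0.145 TPM (pup 1) or 0.164 TPM (pup 3) at an effective transcript length of 1000 nt. Intervals and floors hold for counting error alone, because copies made by amplification are not separate molecules. The label hindbrain was checked against position markers: Hoxa2, Hoxb5, Meis1, Zic1, Pcp2 and Hoxb3 were detected in both libraries, Hoxb2 and Hoxb4 in neither, and none of 8 forebrain markers was detected in either.

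Most of the pathway was detected in both libraries. Of the 33 members, 32 were detected in pup 1 and 31 in pup 3, with 30 in both, that is 90.9%, beside 37.8% of 21461 nuclear protein-coding genes. At a mean of 30 to 300 TPM, all 23 members and 95.8% of 4328 protein-coding genes were detected in both. The median protein-coding gene among those detected stood at 24.3 TPM in pup 1 against 33.5 TPM in pup 3, and 24 and 26 members lay above it, 21 of them in both. The members below it in both pups were Lss, Ebp, Scap and Stard4. Together the members held 2888 TPM in pup 1 against 3072 TPM in pup 3, which is 0.289% and 0.307% of nuclear TPM. The sums were therefore close while single genes were not: the log2 ratio of pup 3 over pup 1 had a median of 0.08 over the 30 members detected in both, with an SD of 1.49 among members, beside a median of 0.14 over protein-coding genes detected in both.

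**Figure D1:**
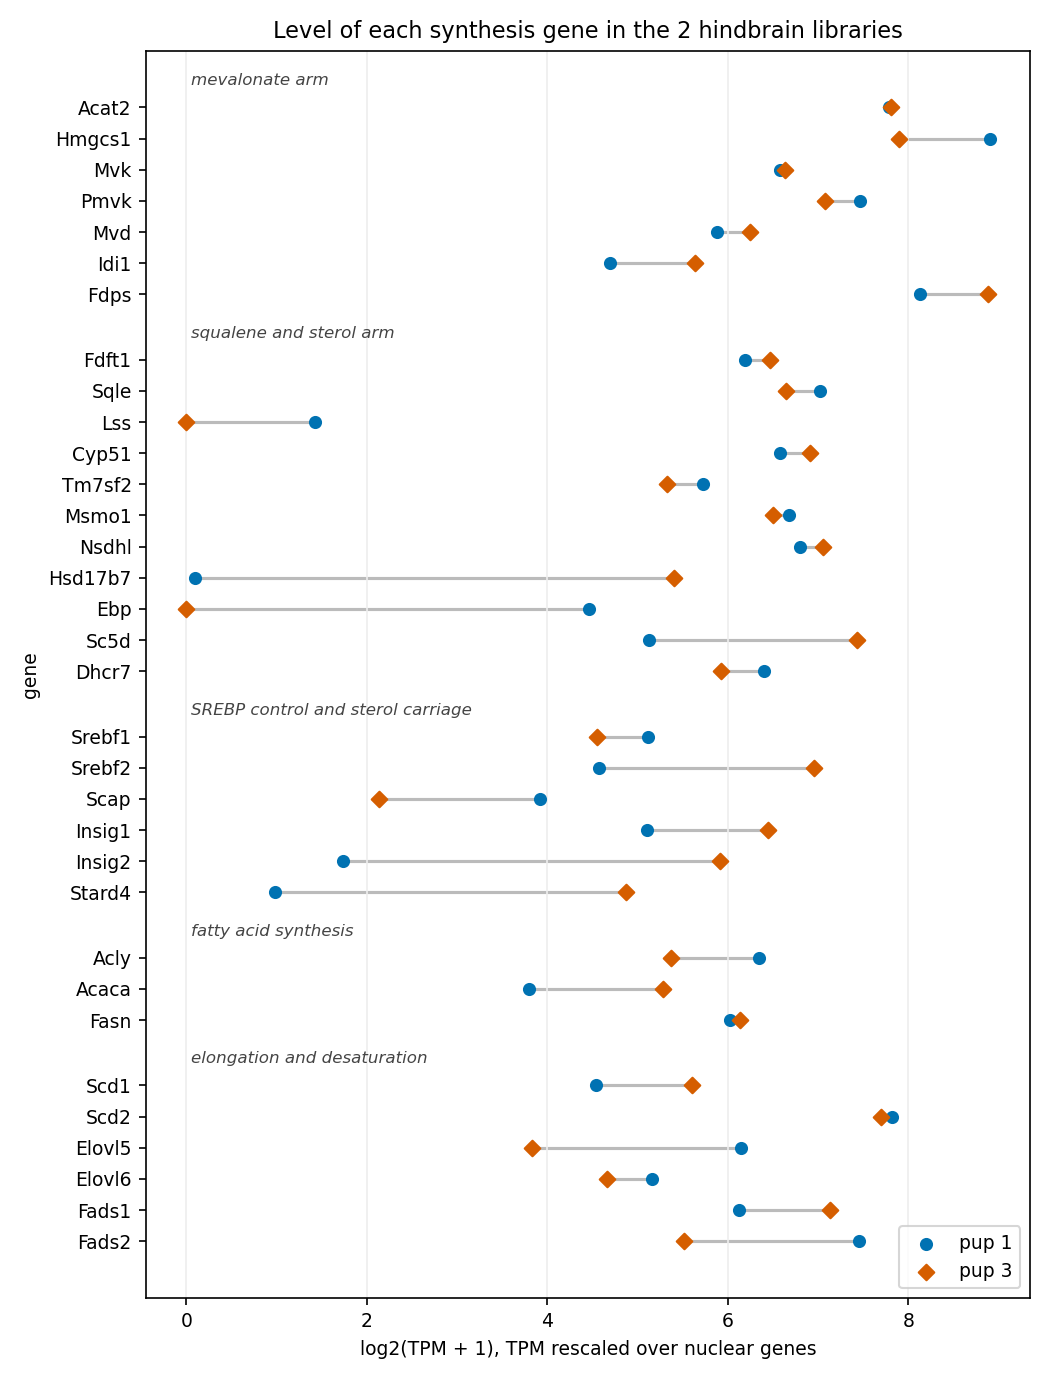
Level of each of the 33 synthesis genes, as log2(TPM + 1) on the horizontal axis, with circles for pup 1 and diamonds for pup 3 joined by a line, grouped by pathway role. Most lines are short in the mevalonate arm, and the longest belong to Hsd17b7, Ebp, Insig2 and Stard4.

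A difference between the pups was counted when it passed 4-fold on log2(TPM + 1), a log2 ratio of 2 or more in size, among genes with at least 50 expected counts in 1 library. All 33 members met that count, and 7 passed 4-fold, beside 39.8% of 11245 protein-coding genes. Hsd17b7, Sc5d, Srebf2, Insig2 and Stard4 were higher in pup 3 (16.2% of protein-coding genes passed in that direction) and Ebp and Elovl5 were higher in pup 1 (23.6%). The loss and scatter of genes between these libraries depended on level, so the background at like levels is the closer one: of protein-coding genes at a mean of 30 to 300 TPM, 17.6% passed 4-fold, and of the 23 members at those levels, 4 did. That share lies near the background and is no result about the members. At 2-fold, 15 members passed beside 61.9% of protein-coding genes, and 18 of the 33 stayed within 2-fold.

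**Figure D2:**
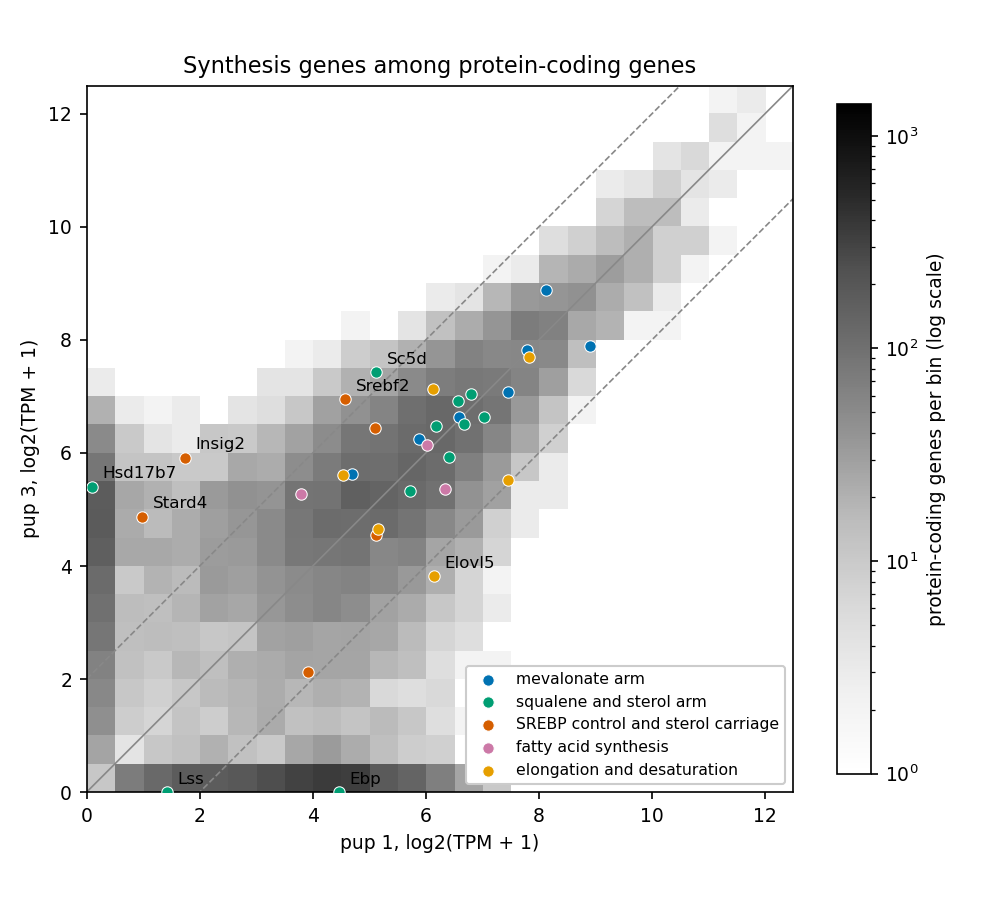
Each member's level in pup 1 (horizontal) and pup 3 (vertical) as log2(TPM + 1), coloured by pathway role, over 11245 protein-coding genes shown as grey bins on a log scale. Dashed lines mark 4-fold, 7 members passed it, and Lss and Ebp lie on the horizontal axis because pup 3 had no count for them.

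The mevalonate arm, which makes the isoprenoid building blocks, was the most abundant class. Its 7 genes summed to 1308 ± 29.4 TPM (SD, n = 2), and all were detected in both pups. None passed 4-fold, beside 39.8% of all protein-coding genes and 17.6% of those at a mean of 30 to 300 TPM. The median size of the log2 ratio of these 7 genes, whatever its sign, was 0.38. For protein-coding genes detected in both pups it was 0.94, and 0.81 for those at a mean of 30 to 300 TPM. The part of level in this difference was not tested. Hmgcs1, the cytosolic HMG-CoA synthase (ENSMUSG00000093930.1, GRCm38 chromosome 13, 119690379 to 119708260), had 30986 counts in pup 1 against 13540 in pup 3. These are 477 and 236.5 TPM, 2.02 times more in pup 1. Fdps, the farnesyl diphosphate synthase (ENSMUSG00000059743.8, chromosome 3, 89093588 to 89101959), went the other way, with 279 TPM from 6597 counts in pup 1 and 471 TPM from 9821 counts in pup 3, a ratio of 1.69. In each library 1 of these 2 genes was therefore the most abundant member, Hmgcs1 in pup 1 and Fdps in pup 3.

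None of the other mevalonate genes differed by 2-fold. Acat2, the cytosolic thiolase that joins acetyl-CoA units, was nearly equal at 220 TPM in pup 1 against 224 TPM in pup 3. Mevalonate kinase, Mvk, stood at 94.6 and 97.9 TPM, and phosphomevalonate kinase, Pmvk, at 175 and 134 TPM. The log2 ratio of Mvk changed sign with the scale, from 0.05 in TPM to -0.29 in CPM, counts scaled by library total alone, while that of Pmvk was -0.38 on both. Mvd, the decarboxylase that yields isopentenyl diphosphate, was measured at 57.8 TPM in pup 1 against 74.7 TPM in pup 3. Idi1, the isomerase that balances the isoprenoid diphosphates, was the lowest of the class at 24.9 and 48.7 TPM, 1.96 times more in pup 3.

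In the squalene and sterol arm the steps were uneven. The 11 genes summed to 770 ± 98.0 TPM (SD, n = 2), and 8 were detected in both pups. Of the 11, 3 passed 4-fold, beside 39.8% of protein-coding genes. Fdft1, the squalene synthase that commits farnesyl diphosphate to sterols, stood at 71.9 TPM in pup 1 against 87.8 TPM in pup 3. Sqle, the squalene epoxidase, followed at 129 and 98.9 TPM. Both differed by less than 2-fold, as did 5 of the enzymes that follow them, Cyp51, Nsdhl, Msmo1, Tm7sf2 and Dhcr7. Cyp51, the demethylase of lanosterol, had 94.3 and 120 TPM. Nsdhl, a sterol dehydrogenase (chromosome X, 72918557 to 72958514), had 111 and 132 TPM. Msmo1, the sterol methyl oxidase, had 102 and 89.8 TPM, and Tm7sf2, a sterol reductase of the endoplasmic reticulum, had 51.9 and 39.2 TPM.

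The direction or the size of 3 of these small differences depended on which transcripts were counted. With protein-coding transcripts only, the log2 ratio of Cyp51 changed from 0.34 to -0.07, that of Tm7sf2 from -0.40 to 0.67, and that of Msmo1 from -0.18 to -1.17. Msmo1 carried 61.0% of its TPM on transcripts annotated as not coding in pup 3 and 21.3% in pup 1. For Tm7sf2 the order was opposite, with 53.4% in pup 1 and none in pup 3. Its exons share 532 bases with Vps51 on the same strand, so reads there could belong to either gene.

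The 5 remaining sterol genes included the largest differences of the whole set. Hsd17b7, the keto reductase that completes the removal of the methyl groups (ENSMUSG00000026675.8, chromosome 1, 169949535 to 169969241), had 2 counts in pup 1 against 1218 in pup 3. Its levels were 0.068 TPM and 41.3 TPM, and its share of nuclear counts was 720 times higher in pup 3 (95% exact counting interval 199 to 5956). In pup 3, 52.8% of its TPM lay on a processed transcript, and on coding transcripts alone the log2 ratio was 4.34 in place of 5.31. Ebp, the sterol isomerase that moves the ring double bond (ENSMUSG00000031168.10, chromosome X, 8185329 to 8193512), was the reverse, with 482 counts and 21.1 TPM in pup 1 and none in pup 3. Against a floor of 3 counts in pup 3 this is at least 142-fold higher in pup 1. So 2 neighbouring steps of sterol synthesis were each missing, or nearly so, from 1 library and present in the other.

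Sc5d, the lathosterol desaturase that acts after Ebp (chromosome 9, 42251595 to 42264256), was detected in both pups but 5.04 times higher in pup 3, with 1501 counts and 34.0 TPM in pup 1 and 6661 counts and 171 TPM in pup 3. Dhcr7, the reductase that acts on its product, was closer, at 83.8 and 59.6 TPM. Lss, the lanosterol synthase that closes the sterol rings (chromosome 10, 76531588 to 76557138), had the lowest mean TPM of all members. It had 241 counts and 1.68 TPM in pup 1 and no count in pup 3, at least 70.6-fold higher in pup 1 against the floor. All 241 counts were assigned to Lss-204, a transcript with a retained intron, and the protein-coding Lss-201 had none in either pup, so no coding transcript of this enzyme was seen at this depth.

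The missing members sat at levels where other genes were missing too. Of protein-coding genes at 10 to 30 TPM in pup 1, the level of Ebp, 30.5% were not detected in pup 3 (95% Wilson interval 28.9 to 32.2%), and among members this was 1 of 6. At 1 to 10 TPM, the level of Lss, 39.7% were not detected, and among members 1 of 2. Hsd17b7 lay higher: of protein-coding genes at 30 to 100 TPM in pup 3, 9.80% were not detected in pup 1 (8.79 to 10.9%), and among members 1 of 16. In pup 1, 14 members stood at 30 to 100 TPM and 8 at 100 to 300 TPM, and all of these were detected in pup 3, where the share of protein-coding genes missing at those levels was 13.3% and 1.92%.

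SREBP factors bind sterol regulatory elements, usually beside sites of NF-Y, which binds CCAAT boxes, and Sp1, which binds GC boxes. RefSeq promoter windows on GRCm38.p6, from 250 bases before to 50 bases after an annotated start, matched 26 of the 33 members with 34 windows; Sqle, Fdps, Fdft1, Stard4, Scd1, Scd2 and Fads1 were not analysed here. Both strands were searched for the sterol regulatory core TCACCCCAC, its form with a free base TCACNCCAC, which includes the first, the E-box CACGTG, the NF-Y box CCAAT and the GC box GGGCGG. The sterol core was found in 1 member, Hmgcs1, beside 0.551% of 32851 windows, and the form with a free base in the same member beside 1.24%. CCAAT was found for 21 members (22 of 34 windows, beside 37.4% of all windows), GGGCGG for 21 members (25 of 34 windows, beside 35.7%), and CACGTG for 6 members (7 of 34 windows, beside 7.15%), namely Dhcr7, Elovl5, Hsd17b7, Insig1, Sc5d and Scap. A match is a description of letters, not a site of binding.

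The windows of 3 members are shown, that of Hmgcs1 because it was the only member window with the sterol core, and those of Hsd17b7 and Ebp because these genes had the largest differences between the pups in either direction, a choice made after their values were seen. Capitals mark every match on either strand to the sterol core with its free base, the E-box, the NF-Y box or the GC box. Hmgcs1 is at chr13:119690101-119690400 (plus strand), Hsd17b7 at chr1:169969156-169969455 and Ebp at chrX:8193463-8193762 (both minus strand).
Hmgcs1: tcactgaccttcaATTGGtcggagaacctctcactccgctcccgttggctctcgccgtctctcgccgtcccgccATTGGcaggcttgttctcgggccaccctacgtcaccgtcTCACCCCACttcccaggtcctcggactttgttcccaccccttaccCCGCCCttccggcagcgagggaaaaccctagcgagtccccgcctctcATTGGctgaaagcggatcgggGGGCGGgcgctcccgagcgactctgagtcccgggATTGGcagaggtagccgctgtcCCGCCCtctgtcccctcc
Hsd17b7: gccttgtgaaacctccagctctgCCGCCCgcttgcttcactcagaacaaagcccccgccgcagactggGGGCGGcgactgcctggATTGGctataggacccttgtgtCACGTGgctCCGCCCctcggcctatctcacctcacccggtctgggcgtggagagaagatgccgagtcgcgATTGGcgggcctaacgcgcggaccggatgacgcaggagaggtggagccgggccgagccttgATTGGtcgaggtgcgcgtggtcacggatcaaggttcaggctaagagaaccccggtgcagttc
Ebp: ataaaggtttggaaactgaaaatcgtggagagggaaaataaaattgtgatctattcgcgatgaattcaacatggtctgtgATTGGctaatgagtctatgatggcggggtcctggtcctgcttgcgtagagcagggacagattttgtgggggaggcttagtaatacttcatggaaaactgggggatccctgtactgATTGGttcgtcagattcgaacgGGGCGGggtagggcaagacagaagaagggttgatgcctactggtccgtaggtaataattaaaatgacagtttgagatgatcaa
The sterol core of Hmgcs1 begins at position -137 from the RefSeq start, between CCAAT boxes at -176 and -45. The Hsd17b7 window holds the E-box at -143 with CCAAT boxes at -165, -73 and -12, and the Ebp window holds CCAAT boxes at -170 and -55 and a single GC box at -33. Both genes with opposite differences thus carry NF-Y and GC boxes in these windows.

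The control genes differed most between the pups, with a median size of the log2 ratio of 2.08, beside 0.94 for protein-coding genes detected in both. The 6 genes summed to 107 TPM in pup 1 against 322 TPM in pup 3, a mean of 215 ± 152 TPM (SD, n = 2). All were detected in both pups, and 3 passed 4-fold, all higher in pup 3, beside 39.8% of protein-coding genes in either direction and 16.2% in that one. Their median level was 18.4 TPM for pup 1, below that of detected protein-coding genes, and 43.9 TPM for pup 3, above it, and the part of level in these differences was not tested. Srebf2, the SREBP factor tied mainly to cholesterol genes (ENSMUSG00000022463.7, chromosome 15, 82147181 to 82205379), had 2308 counts and 22.8 TPM in pup 1 and 10981 counts and 123 TPM in pup 3, a ratio of 5.40. All of its TPM lay on its only listed transcript, so the difference did not depend on how reads were split among transcripts.

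Srebf1, the factor tied mainly to fatty acid genes (chromosome 11, 60199089 to 60222581), gave different answers on different scales. Its 1669 expected counts in pup 1 stood against 240 in pup 3, a log2 ratio of -2.42 in CPM. In TPM it was 33.6 and 22.5, a log2 ratio of -0.56, because 92.0% of its TPM in pup 3 was placed on Srebf1-204, a processed transcript of 367 nt. On protein-coding transcripts only, the levels were 18.4 and 1.81 TPM and the log2 ratio was -2.79. Whole-gene TPM of Srebf2 over Srebf1 was 0.678 in pup 1 and 5.47 in pup 3. The order in pup 1 depended on the transcripts counted. On protein-coding transcripts Srebf2 was the higher in both, with 22.8 against 18.4 TPM in pup 1 and 123 against 1.81 TPM in pup 3.

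Scap, the escort of both factors, was low in both pups, with 1220 counts and 14.1 TPM in pup 1 and 258 counts and 3.38 TPM in pup 3. Insig1, an endoplasmic reticulum anchor of Scap and itself an SREBP target, had 33.4 TPM in pup 1 against 85.9 TPM in pup 3, a ratio of 2.57 on a single listed transcript. Insig2, its paralog (chromosome 1, 121304353 to 121332589), had 125 counts and 2.33 TPM in pup 1 and 901 counts and 59.5 TPM in pup 3. Its ratio was 25.6 in TPM and 8.53 in the share of counts.

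The gap between these 2 ratios followed the transcripts. In pup 1 all of the Insig2 TPM was on Insig2-201, of 2697 nt, and in pup 3 none was, with 56.4% on Insig2-208, of 1204 nt, and most of the rest on shorter ones. Stard4, a carrier that moves sterols between membranes, showed the same kind of split. It had 65 counts and 0.971 TPM in pup 1 and 447 counts and 28.3 TPM in pup 3, and 91.3% of its TPM in pup 3 lay on Stard4-203, of 941 nt, which had 0.29% in pup 1. Its share of counts was 8.14 times higher in pup 3. Both genes passed 4-fold on either scale.

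**Figure D3:**
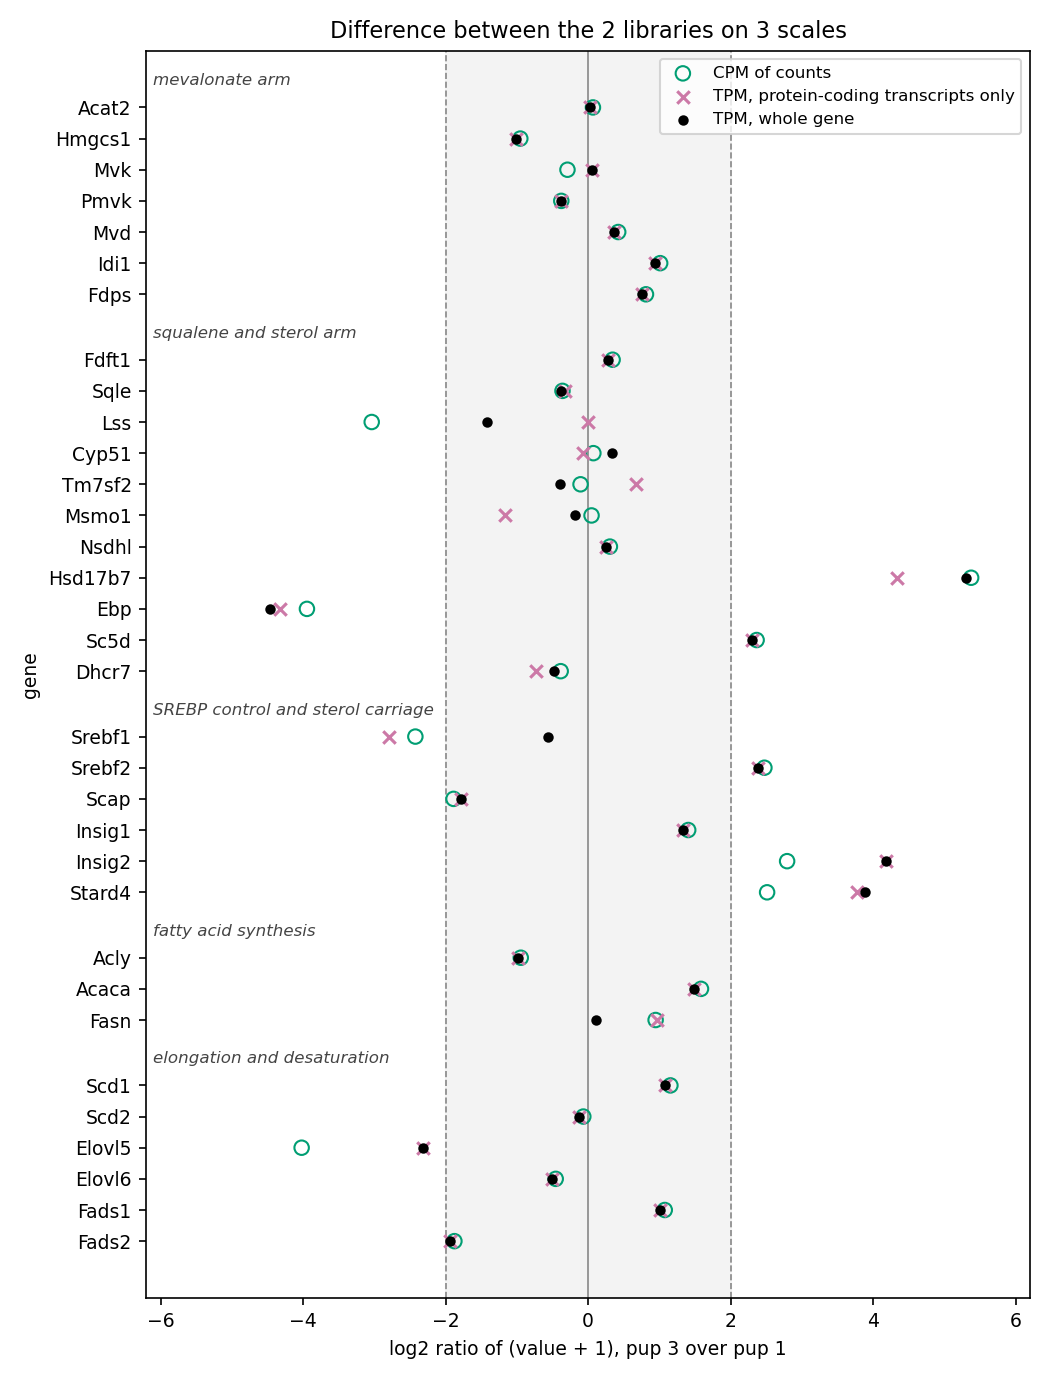
The log2 ratio of pup 3 over pup 1 for each member on 3 scales, whole-gene TPM (black), CPM of expected counts (open circles) and TPM of protein-coding transcripts only (crosses), with dashed lines at 4-fold. The scales part most for Lss, Srebf1, Elovl5, Insig2 and Stard4, and Srebf1 passes 4-fold on the latter 2 scales only.

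De novo fatty acid synthesis was present in both pups, with 152.5 ± 6.90 TPM (SD, n = 2) over 3 genes. None of the 3 passed 4-fold, beside 39.8% of protein-coding genes. Acly, the ATP citrate lyase that makes cytosolic acetyl-CoA, had 7038 counts and 80.4 TPM in pup 1 and 3079 counts and 40.3 TPM in pup 3. Acaca, the acetyl-CoA carboxylase of lipogenesis, went the other way, with 12.9 TPM in pup 1 against 37.9 TPM in pup 3, a ratio of 2.94. Fasn, the fatty acid synthase, looked equal at 64.2 and 69.4 TPM. On its protein-coding transcript, however, it stood at 35.1 TPM in pup 1 against 69.3 TPM in pup 3, since 45.3% of its TPM in pup 1 was placed on short retained-intron transcripts beside 0.17% in pup 3. The counts of Fasn, 7347 and 12014, gave a CPM log2 ratio of 0.95, close to the coding value of 0.96.

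The elongases and desaturases summed to 535 ± 84.0 TPM (SD, n = 2), and Scd2 carried the largest part. Scd2, the stearoyl-CoA desaturase of the developing brain (ENSMUSG00000025203.5, chromosome 19, 44293674 to 44306864), had 25000 counts and 225 TPM in pup 1 and 20182 counts and 206 TPM in pup 3. Scd1, its neighbour that dominates in liver (chromosome 19, 44394455 to 44407879), had 22.2 and 47.8 TPM. Scd2 therefore exceeded Scd1 in both pups, by 10.2 times in pup 1 and 4.32 times in pup 3. The order of these paralogs was the same in both libraries and the size of the gap was not.

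The front-end desaturases of polyunsaturated fatty acids changed places between the pups. Fads1 had 68.7 TPM in pup 1 against 139.5 TPM in pup 3, and Fads2 had 174 and 44.7 TPM, each from a single listed transcript. The ratio of Fads1 over Fads2 was 0.395 in pup 1 and 3.12 in pup 3. Fads2, with a log2 ratio of -1.94, lay just inside 4-fold. The elongases likewise had no fixed order.

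Elovl5, which elongates polyunsaturated fatty acids (chromosome 9, 77917364 to 77984519), had 3867 counts and 69.6 TPM in pup 1 and 175 counts and 13.2 TPM in pup 3. It was 5.28 times higher in pup 1 in TPM. In CPM the log2 ratio was -4.02, because 91.2% of its TPM in pup 3 was placed on Elovl5-202, a coding transcript of 638 nt that had none in pup 1. Elovl6, which elongates palmitate, was closer, at 34.7 TPM in pup 1 against 24.2 TPM in pup 3. Whole-gene TPM of Elovl5 over Elovl6 was 2.00 in pup 1 and 0.544 in pup 3.

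**Figure D4:**
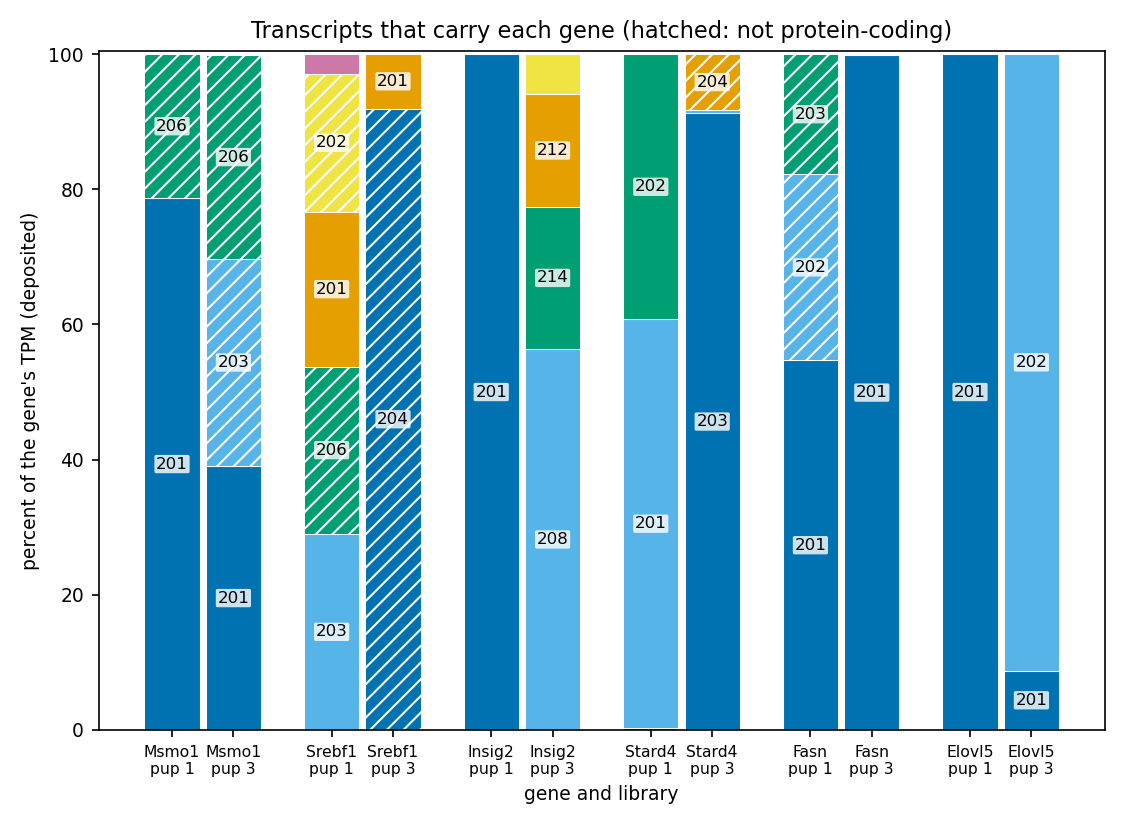
Percent of a gene's TPM on each transcript in pup 1 and pup 3 for 6 members, from the deposited percentages, with colours separating transcripts within a gene, numbers giving the end of the transcript name and hatching for transcripts that are not protein-coding. Insig2, Stard4, Srebf1 and Elovl5 have a different leading transcript in each pup.

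The leading transcript was the same in both pups for 26 members, but 12 of these have only 1 listed transcript and could not differ. It differed for 5, namely Mvk, Srebf1, Insig2, Stard4 and Elovl5, and the 2 others had no count in 1 library. Among the 26, the leading share still moved from pup 1 to pup 3 for Msmo1 (78.7 to 39.0%), Fasn (54.7 to 99.8%) and Tm7sf2 (46.65 to 99.0%). That of Hsd17b7 rested on 2 counts in pup 1. For 16 members, the same 12 included, a single transcript took at least 95% of the TPM in both pups. The deposited SD of a count over read assignment was at most 0.592% of the count for members with at least 100 counts. By the authors' estimate the assignment of reads to these genes was thus little uncertain, which does not tell how many reads were shared with other genes. The SD is that of the gene count, so it does not cover the split of reads among transcripts of 1 gene, whose uncertainty was not examined. Exons of 11 members overlap another annotated gene. Fdps shares 1124 bases with a gene on the same strand and Hmgcs1 shares 557 bases with a gene on the opposite strand, and neither of those genes is matched in the tables used, so that SD does not cover reads that could be theirs. Since it is not known whether strand was used, the reads of Fdft1 and Ctsb (774 bases on opposite strands), Scap and 5830462I19Rik (985 bases), Cyp51 and Akap9 (166 bases) and Srebf1 and Rai1 (109 bases) could not be told apart there.

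All 7 further steps and branches of the sterol route that were listed were detected in both pups. None of the 7 passed 4-fold, beside 39.8% of protein-coding genes. Pdss1, of ubiquinone side-chain synthesis, had 60.3 and 33.9 TPM, and Dhdds, of dolichol synthesis, had 57.0 and 29.7 TPM. Lbr, a second reductase able to do the step of Tm7sf2, was nearly equal at 41.4 and 42.9 TPM.

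Among 9 further SREBP regulators, 7 were detected in both pups. Of the 8 with enough counts, 1 passed 4-fold, beside 39.8% of protein-coding genes. Mid1ip1, an activator of acetyl-CoA carboxylase, led at 125 and 87.4 TPM, followed by Mbtps1, the first protease that cleaves SREBP, at 32.98 and 59.6 TPM. Erlin2, an endoplasmic reticulum protein of sterol-regulated degradation, had 58.8 and 21.9 TPM. Erlin1, the partner of Erlin2, was the gene past 4-fold, with 1220 counts in pup 1 against none in pup 3, at least 359-fold higher in pup 1 against the floor.

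Genes that take up, move, store or clear sterols numbered 17. Of these, 10 were detected in both pups, and 7 of 15 with enough counts passed 4-fold, 6 of them higher in pup 1, beside 39.8% of protein-coding genes in either direction and 23.6% higher in pup 1. Apoe, the main apolipoprotein of the brain, was the most abundant at 3536 TPM in pup 1 against 3225 TPM in pup 3. Npc2 (53.4 and 61.0 TPM), a lysosomal sterol carrier, and the receptors Lrp1 (59.2 and 49.9 TPM) and Lrp8 (16.9 and 44.9 TPM) followed. The values of both receptors depended on the transcripts counted. On protein-coding transcripts only, Lrp1 had 11.1 and 22.4 TPM and Lrp8 had 14.6 and 15.8 TPM. Cyp46a1, the neuronal cholesterol hydroxylase, had 2510 counts in pup 1 against none in pup 3, and the same held for the sterol carrier Stard3 with 1937 counts, the esterifying enzyme Soat1 with 1302 and the transporter Abcg4 with 322.

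The lipoprotein receptor Vldlr (1610 and 28 counts) was also higher in pup 1. The cholesterol exporter Abca1 was the reverse, with no count in pup 1 and 2372 in pup 3. Against the floor, the folds of the genes with no count were at least 738-fold for Cyp46a1, 569-fold for Stard3, 383-fold for Soat1 and 94.6-fold for Abcg4, each higher in pup 1, and at least 896-fold for Abca1, higher in pup 3.

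Of 23 genes of fatty acid supply, elongation and activation, 17 were detected in both pups. Of the 20 with enough counts, 4 passed 4-fold, beside 39.8% of protein-coding genes. Fabp7, the fatty acid binding protein of radial glia, had 2791 and 3012 TPM, Tecr, the reductase that ends each elongation round, had 1367 and 1887 TPM, Fabp5 had 767 and 1144 TPM, and Hacd3, the dehydratase of the same cycle, had 205.5 and 255 TPM. The acyl-CoA synthetases, which activate fatty acids, were split: Acsl3 (26.4 and 205 TPM) and Acsl1 (2.39 and 30.6 TPM) were higher in pup 3. Acsl4 (2051 counts in pup 1) and Acacb, the second acetyl-CoA carboxylase (474 counts in pup 1), had no count in pup 3, at least 603-fold and 139-fold higher in pup 1. All 474 counts of Acacb were assigned to transcripts that are not protein-coding, so no coding transcript of it was seen in either pup.

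Fatty acid oxidation, the opposing route, had 7 of 10 genes detected in both pups. Of the 10, 4 passed 4-fold, a share near the 39.8% of protein-coding genes. Etfdh (132 and 93.2 TPM), Acadvl (114 and 102 TPM) and Hadhb (35.3 and 137 TPM) were among its most abundant. Cpt1a, the gate of mitochondrial fatty acid import, had 4880 counts in pup 1 against 1 in pup 3, and Hadha (4581 counts and 1) and Cpt2 (872 counts and 1) were alike. Acadm was higher in pup 3, with 231 and 2433 counts. Over all 66 related genes, 48 were detected in both pups and 16 of 60 with enough counts passed 4-fold, 12 of them higher in pup 1. Of protein-coding genes, 39.8% passed in either direction and 23.6% higher in pup 1.

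**Figure D5:**
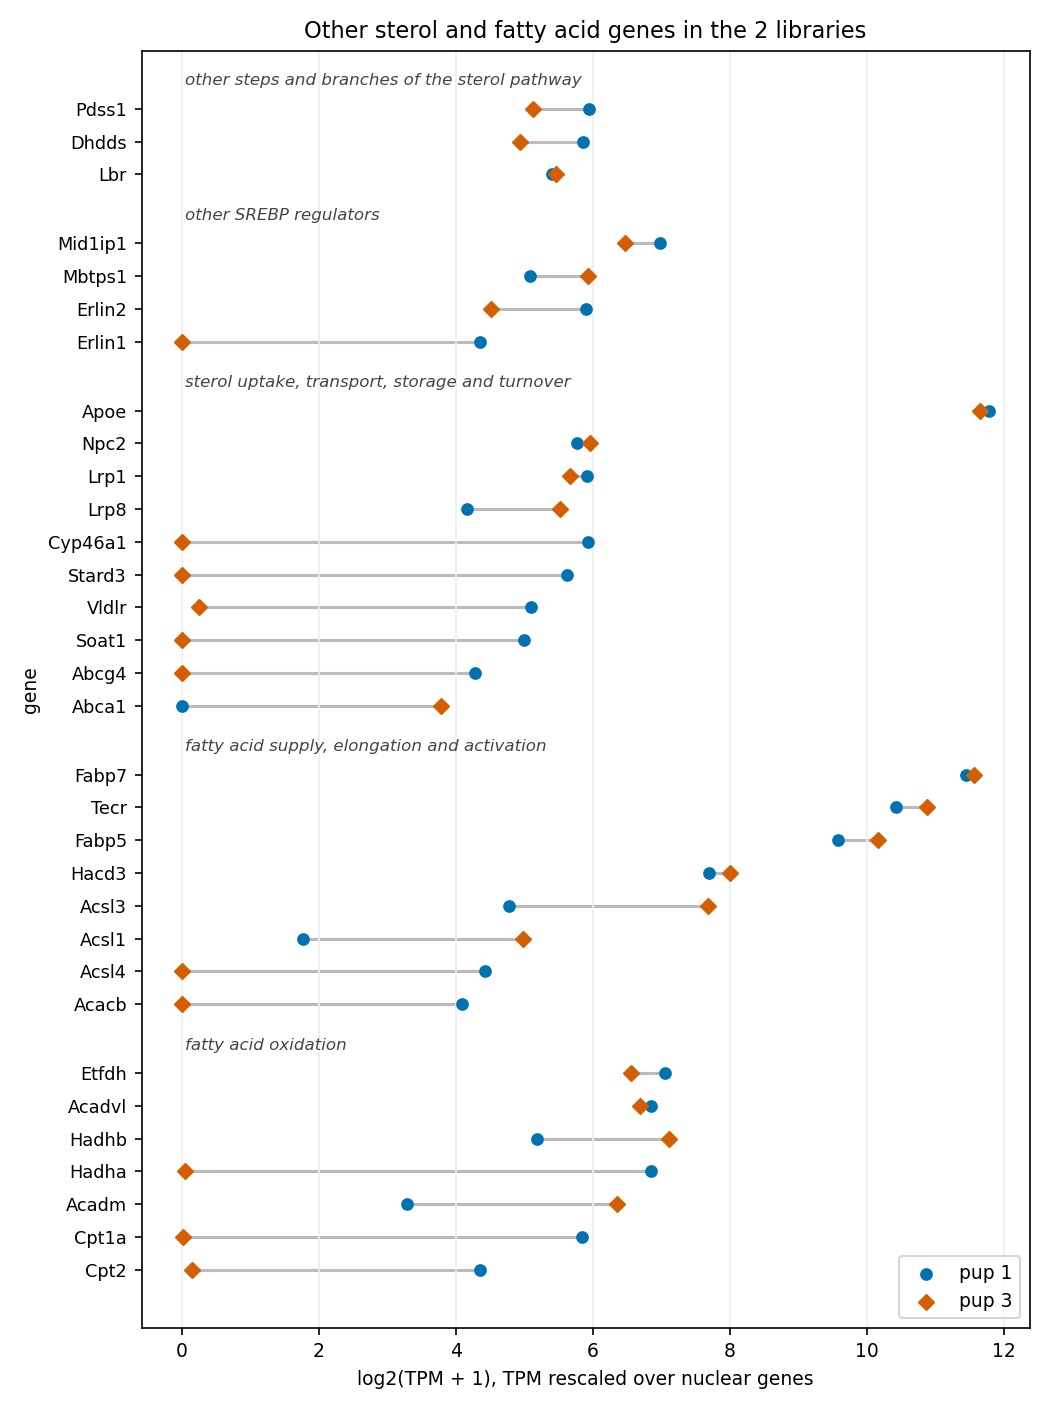
Levels of other sterol and fatty acid genes as log2(TPM + 1), circles for pup 1 and diamonds for pup 3, grouped by role: genes among the 4 with the highest mean TPM of a list and genes past 4-fold, apart from those not reported here. The points at 0 in pup 3 include Cyp46a1, Stard3, Soat1, Acsl4 and Erlin1, and Abca1 is the point at 0 in pup 1.

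Markers of cell types that differ in lipid synthesis were set beside these values, and their part in the differences was not tested. Astrocyte and radial glia markers summed to 5446 TPM in pup 1 against 4776 TPM in pup 3, with 7 of 8 detected in both, and Aldh1l1 was at 103 and 0.022 TPM. Oligodendrocyte and myelin markers summed to 467 and 252 TPM, with 6 of 8 detected in both, and Sox10 and Mog at 0 in pup 3. Of those 6, 3 were higher in pup 1 and 3 in pup 3. Pan-neuronal markers summed to 7692 and 5252 TPM, with all 8 detected in both pups, 5 of them higher in pup 1 and 3 in pup 3. Tubb3 (3905 and 2044 TPM) and Stmn2 (2301 and 1554 TPM) made up most of these neuronal sums. Meningeal and fibroblast markers summed to 207 and 385 TPM (4 of 5 in both, Lum at 0 in pup 3), and erythroid markers to 1486 and 3941 TPM (4 of 5 in both, Alas2 at 0 in pup 3). Endothelial and pericyte markers summed to 244 and 439 TPM (4 of 6 in both, Flt1 at 0 in pup 1). Of those 4, 2 were higher in pup 3 and 2 in pup 1, among the latter Kdr at 15.9 and 0.982 TPM. Microglial markers summed to 176 and 149 TPM, with 2 of 6 detected in both, Csf1r and Aif1 at 0 in pup 3 and Cx3cr1 and P2ry12 at 0 in pup 1. Choroid plexus markers summed to 3101 and 3520 TPM, with 3 of 5 detected in both and Kl and Clic6 at 0 in either. Ttr made up most of these sums, at 3028 and 3380 TPM. Otx2 counted as detected in both with only 5 counts in pup 1 against 2817 in pup 3, which are 0.113 and 85.1 TPM.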

How the data were processed

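RNA-seq of 2 libraries was analysed from gene and transcript tables that the authors made on mm10 with annotation M4, per the deposited notes. The aligner, its version and any use of strand are not stated in the sources used here. Per the file headers, the tables hold an expected count per gene or transcript, a posterior SD of that count, TPM, FPKM and, for transcripts, the percent of the gene's TPM. The authors scaled the deposited TPM over all entries, spike-ins and mitochondrial genes included; here it was rescaled over 43309 nuclear genes. The deposited FPKM was used as an alternative, as was CPM computed from the counts. Of 43346 identifiers 98.0% matched GENCODE M21 on GRCm38. Detection needed 5 counts, a fold 50 counts in 1 library, and log2 a pseudocount of 1, which understates differences of low genes.

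No test was possible with 1 group. edgeR 4.0.16 and DESeq2 1.42.0 gave scaling factors on rounded expected counts only; the rest used Python 3.11.15, pandas 2.3.3 and scipy 1.17.1. The fold count was run on a simulated pair of libraries with planted changes and counting error only. That setting leaves out losses at low input, so it does not test the differences seen between the pups. Members, lists and thresholds were chosen with earlier results of these data known. All 33 members are named, and of each related list the 4 with the highest mean TPM and every one past 4-fold. Some genes that this rule names are not reported here. Alternatives were other detection rules, folds, pseudocounts, minimum counts and scalings, each library alone, and, chosen after seeing the data, protein-coding transcripts only. Protein sequences were not used here.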

Additional observations from a re-analysis of the deposited data

How the results depend on the processing

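The count of members detected in both pups (30) stayed at 29 to 31 under other detection rules and after thinning, and was 31 to 32 for single libraries. The count past 4-fold (7: 5 higher in pup 3, 2 in pup 1) was 15 at 2-fold (9 and 6) and 4 at 8-fold (3 and 1). It was 11 with edgeR TMM or DESeq2 scaling of counts, with 6 higher in pup 1, beside 42.6% of protein-coding genes, since Lss, Srebf1, Scap and Fads2 then passed. With CPM (Lss, Srebf1) or a pseudocount of 0.1 (Lss, Scap) 9 passed, 4 of them higher in pup 1, and with coding transcripts only 8 passed (Srebf1). CPM ignores transcript length, which TPM does not. The 7 members past 4-fold kept direction and call under all 8 scalings and pseudocounts tried. The median log2 ratio of members (0.08) ranged from -0.07 under DESeq2 scaling to 0.15 for coding transcripts, so its sign is not firm, and that of protein-coding genes from 0.02 to 0.20. Summed over deposited TPM, the mevalonate arm was 1165 TPM and fatty acid synthesis 136 TPM, since the deposited scale includes spike-ins and mitochondrial genes. For single libraries, the class sums ranged from 1287 to 1329 TPM for the mevalonate arm, 700 to 839 for the sterol arm, 107 to 322 for control genes, 148 to 157 for fatty acid synthesis and 476 to 595 for elongation and desaturation. No paired analysis was possible because there is 1 group with 1 library per replicate number. With 13 pg of input and 1 library per pup, differences between animals and losses in preparing a library cannot be told apart.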
